A study of Mus musculus with 2 samples.

Results

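The 10 genes described here belong to the core of the mammalian circadian clock together with its direct outputs: Arntl, Clock, Npas2, Per1, Per2, Per3, Cry2, Nr1d1, Dbp and Ciart. They were chosen by gene symbol from 55536 gene entries, and all 10 were detected in both libraries. Total RNA of left cerebral cortex was sequenced from males of B6CASTF1/J, the first-generation hybrid of B6 and Cast mice, at 8 to 10 months of age. Replicate 1 is the animal numbered 2 and replicate 2 the animal numbered 4. They form 1 group with no treatment named, so no condition was compared. A single donor label covers both libraries. They are taken as separate mice from the animal numbers and from the labels, which give them biological replicate numbers 1 and 2. The hour at which the cortex was collected is not given in the sources used here. Ribosomal RNA was reduced, ERCC spike-ins were added to the 300 ng of RNA behind each library, and the libraries held 26925514 (replicate 1) and 30143684 (replicate 2) expected counts. Levels are in TPM, a transcript abundance corrected for transcript length, and ± marks the SD over the 2 animals (n = 2).

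The clock is a transcriptional loop that runs in nearly every cell. BMAL1, the protein of Arntl, pairs with CLOCK or its close relative NPAS2, and the dimer binds E-boxes, of which CACGTG is the canonical form, in promoters, introns or enhancers of its target genes, among them Per, Cry, Nr1d1, Dbp and Ciart. PER and CRY proteins return to the nucleus and block that dimer, while REV-ERB alpha, the protein of Nr1d1, represses Arntl through ROR elements and DBP drives genes that carry D-boxes. In the rodent forebrain NPAS2 can stand in for CLOCK, and clock transcripts cycle over the day in cortex as they do in other tissues.

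The promoters below are shown because they carry the elements of this loop. RefSeq promoter windows on GRCm38.p6, from 250 bases before to 50 bases after a start, were present for 9 of the 10 genes, in 13 windows. They were searched on both strands for the E-box CACGTG, the D-boxes TTATGTAA and TTATGCAA, and the ROR element, in which an A- and T-rich flank precedes the nuclear receptor core AGGTCA. No match overlapped another. Exact matches were found in 4 windows of 4 genes, in capitals here, each sequence running 5′ to 3′ on the gene's strand. For Per1, Per3 and Ciart the 250 bases before the start are printed, and for Arntl 30 bases around the match. The Per1 stretch (chr11:69098699-69098948, plus strand) held an E-box beginning 166 bases before the start and a D-box 24 bases before it. The Per3 stretch (chr4:151044666-151044915, minus strand) held a pair of D-boxes, 205 and 158 bases before the start, and no CACGTG. The Ciart stretch (chr3:95882229-95882478, minus strand) held 3 E-boxes, at 116, 58 and 44 bases before the start. The Arntl match, a ROR element, lay 28 bases after the start in the second of its windows (chr7:113207528-113207557, plus strand).
Per1: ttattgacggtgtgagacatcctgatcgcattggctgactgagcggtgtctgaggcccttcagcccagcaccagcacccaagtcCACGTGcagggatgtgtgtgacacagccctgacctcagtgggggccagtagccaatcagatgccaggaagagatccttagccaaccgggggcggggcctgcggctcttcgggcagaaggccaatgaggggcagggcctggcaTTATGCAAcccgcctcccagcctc
Per3: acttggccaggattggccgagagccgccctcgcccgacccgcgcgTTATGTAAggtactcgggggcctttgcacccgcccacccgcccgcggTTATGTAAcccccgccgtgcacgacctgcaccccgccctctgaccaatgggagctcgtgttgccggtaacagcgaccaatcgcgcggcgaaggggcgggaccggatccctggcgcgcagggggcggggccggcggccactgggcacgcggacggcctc
Ciart: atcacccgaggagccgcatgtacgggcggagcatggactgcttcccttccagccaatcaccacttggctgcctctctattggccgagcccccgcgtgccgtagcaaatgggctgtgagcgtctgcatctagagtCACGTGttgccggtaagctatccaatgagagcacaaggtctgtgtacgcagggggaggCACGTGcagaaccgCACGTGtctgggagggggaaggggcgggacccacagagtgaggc
Arntl: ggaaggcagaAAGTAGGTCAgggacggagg

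Of 32851 promoter windows of the same length over all genes, 7.15% held CACGTG, 0.938% TTATGTAA, 0.743% TTATGCAA and 0.219% the ROR element, and 8.94% held any of them. The other 5 genes with a window, Clock, Npas2, Cry2, Nr1d1 and Dbp, had none of these letters in it, which says nothing of elements elsewhere in those genes.

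The activators stood at middling and closely spaced levels. Npas2 (chromosome 1, 39193731 to 39363236, plus strand, mm10) had 29.2 TPM in replicate 1 and 28.2 TPM in replicate 2, averaging 28.7 ± 0.693 TPM. Clock (chromosome 5, 76209868 to 76304792, minus strand), a bHLH-PAS factor, had 25.3 and 23.6 TPM in replicates 1 and 2, with 24.4 ± 1.15 TPM on average. Arntl (chromosome 7, 113207465 to 113314126, plus strand), the partner that both share, had 21.1 and 17.4 TPM in replicates 1 and 2, with 19.2 ± 2.62 TPM on average. In both animals the order was therefore Npas2 above Clock above Arntl, with no overlap between neighbours. The place of Npas2 above Clock includes Npas2-203, a short transcript of 484 bases. It was listed at 4.46 and 3.78 TPM in replicates 1 and 2, on 30.13 and 27.75 expected counts. The main transcript Npas2-201 alone had 24.38 and 23.95 TPM, which in replicate 1 was below the level of Clock. Clock and Npas2 together were 2.59 times Arntl in TPM in replicate 1 and 2.99 times in replicate 2. The ratio of Npas2 to Clock was 1.16 and 1.19 in replicates 1 and 2. These 3 genes were the only members that held the same place among the 10, the fifth, sixth and seventh, in both animals, in both quantifications that the authors deposited.

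The repressors ran from the top to the bottom of the order. Per1 (chromosome 11, 69095217 to 69109960, plus strand), a PER subunit that in rodents is also transcribed in response to cAMP signalling, had 70.0 TPM in replicate 1 and 48.0 TPM in replicate 2, averaging 59.0 ± 15.5 TPM. Cry2 (chromosome 2, 92403646 to 92434043, minus strand), a cryptochrome that binds PER and the activator dimer, had 56.7 and 59.0 TPM in replicates 1 and 2, with 57.8 ± 1.63 TPM on average. Nr1d1 (chromosome 11, 98767932 to 98775333, minus strand) had 49.1 and 63.0 TPM in replicates 1 and 2, with 56.0 ± 9.82 TPM on average. Cry2 was thus almost level between the animals, while Per1 was the highest of these 3 in replicate 1 and the lowest in replicate 2. Of the Per1 level, 27.9 and 19.3 TPM in replicates 1 and 2 came from Per1-204, a short transcript with few counts.

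The remaining repressors were several times lower. Per3 (chromosome 4, 151003652 to 151044665, minus strand), the PER paralogue that is dispensable for the rhythm in mice, had 12.7 and 14.9 TPM in replicates 1 and 2, with 13.8 ± 1.49 TPM on average. Per2 (chromosome 1, 91415982 to 91459324, minus strand), a PER protein needed for a lasting rhythm in mice, had 16.2 and 10.4 TPM in replicates 1 and 2, with 13.3 ± 4.06 TPM on average. Ciart (chromosome 3, 95878503 to 95882251, minus strand), which encodes CHRONO, a repressor that binds BMAL1, had 8.58 and 12.4 TPM in replicates 1 and 2, with 10.5 ± 2.69 TPM on average. Per1 was 4.33 and 4.61 times Per2 in replicates 1 and 2, a ratio that hardly moved although both genes differed between the animals. The size of that ratio depends on the quantification. In the second, Per1 had 46.4 and 42.2 TPM and Per2 12.9 and 11.7 TPM in replicates 1 and 2, a lower ratio in both. The ratio of Per2 to Per3 crossed 1, at 1.27 in replicate 1 and 0.702 in replicate 2.

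The output gene Dbp (chromosome 7, 45705088 to 45710203, plus strand), a PAR bZIP transcription factor, had 51.1 TPM in replicate 1 and 75.5 TPM in replicate 2, with the highest mean of the 10 at 63.3 ± 17.2 TPM. Among 15028 genes with at least 1 TPM in both libraries, 87.7% lay below Dbp and 42.5% below Ciart, by the mean TPM of each. Dbp was 5.96 and 6.09 times Ciart in replicates 1 and 2, so these genes kept their ratio while both were lower in replicate 1. The ratio of Per1 to Dbp was 1.37 in replicate 1 and 0.636 in replicate 2.

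**Figure D1:**
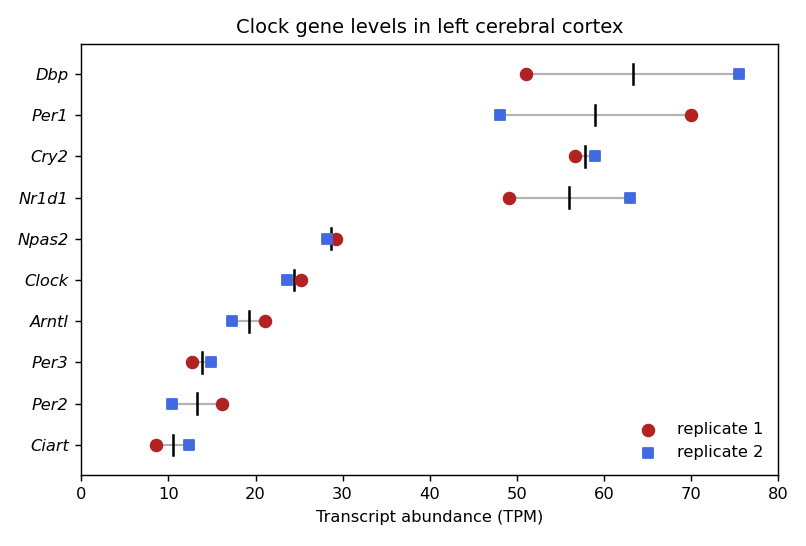
Level of each clock gene in TPM in replicate 1 and replicate 2 (points, joined by a line) with the mean as a black bar, in order of the mean. Dbp, Per1, Cry2 and Nr1d1 overlap at 48.0 to 75.5 TPM, Npas2, Clock and Arntl stand apart in turn, and Per3, Per2 and Ciart overlap at 8.58 to 16.2 TPM.

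Summed over the 10 genes the level was 340 TPM in replicate 1 and 352 TPM in replicate 2, or 346 ± 8.80 TPM. The second quantification gave 283 and 409 TPM in replicates 1 and 2, a wider gap. With TPM rescaled over protein-coding genes alone, the sums were 690.0 and 696 in replicates 1 and 2 in the first quantification, and 609 and 618 in the second. The 3 activators summed to 75.5 and 69.2 TPM in replicates 1 and 2, and the 6 repressors to 213 and 208 TPM. In the second quantification the activators summed to 70.0 and 85.9 TPM and the repressors to 170 and 237 TPM in replicates 1 and 2. Replicate 2 thus held the higher sum of either there, on the scale over all entries. Rescaled over protein-coding genes, replicate 1 held the higher sum of either in both quantifications. The activators were then 153 and 137 TPM in the first and 151 and 130 TPM in the second, in replicates 1 and 2. The repressors were 433 and 410 TPM in the first, and 365 and 358 TPM in the second. In the order of the means, Dbp, Per1, Cry2, Nr1d1, Npas2, Clock, Arntl, Per3, Per2 and Ciart, 4 of 9 neighbouring pairs did not overlap between animals, those from Nr1d1 down to Per3. Dbp, Per1, Cry2 and Nr1d1 could not be ordered beyond their spread, nor could Per3, Per2 and Ciart. The plot of levels by animal shows the first of these groups reshuffled, with Per1, Cry2, Dbp and Nr1d1 in falling order in replicate 1, and Dbp, Nr1d1, Cry2 and Per1 in replicate 2. In the second quantification Cry2 was above Per1 in replicate 1, Ciart was above Per3 in replicate 2, and the range of Arntl overlapped those of Per3 and Ciart. The number of neighbouring pairs without overlap was again 4, though not all the same pairs. Rescaled over protein-coding genes, Arntl at 38.5 and 32.0 TPM in replicates 1 and 2 lay above both. Per3 was then at 23.3 and 29.8 TPM and Ciart at 22.9 and 31.8 TPM.

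For the comparison between the animals, each gene's ratio of replicate 1 over replicate 2 was taken on TMM-scaled CPM, the expected counts relative to library size. With 1 library per animal there is no replicate check of such a ratio, and no test was made. Per2 had 1537 expected counts in replicate 1 and 1110 in replicate 2, and Per1 had 3447 and 2544. Per2 was thus 1.55-fold and Per1 1.52-fold higher in replicate 1, with log2 ratios of 0.64 and 0.61. Their exact 95% binomial counting intervals were 1.44 to 1.68 for the Per2 ratio and 1.45 to 1.60 for the Per1 ratio, and cover counting error only. Neither interval held 1. Per3 stood apart from them. Per3 had 1143 and 1351 expected counts in replicates 1 and 2, and its log2 ratio of -0.07 came with an interval of 0.877 to 1.03 for the ratio.

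Dbp, Ciart and Nr1d1 stood the other way. Dbp had 1383 expected counts in replicate 1 and 2213 in replicate 2, a ratio of 0.702 with a counting interval of 0.656 to 0.751. Ciart, the least counted member, had 175 and 294 expected counts in replicates 1 and 2, a ratio of 0.671 with the wider interval of 0.551 to 0.809. Nr1d1 had 2197 and 3050 expected counts in replicates 1 and 2, a ratio of 0.809 with an interval of 0.765 to 0.855. All 3 are E-box targets of the activator dimer, as Per1 and Per2 are, so that targets of the dimer lay on both sides.

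The activators leaned towards replicate 1 by less. Arntl had 998 and 898 expected counts in replicates 1 and 2, and its log2 ratio of 0.32 came with an interval of 1.14 to 1.37 for the ratio. Clock had 3378 and 3301 expected counts in replicates 1 and 2, a log2 ratio of 0.20 with an interval of 1.10 to 1.21 for the ratio. Npas2 had 1807 and 1928 expected counts in replicates 1 and 2 and Cry2 3544 and 3946, with log2 ratios of 0.07 and 0.01. Those of Npas2 and Cry2 had counting intervals that held 1, and the sign for Cry2 turned on the log2(TPM + 1) scale. The ratio of Nr1d1 to Arntl in TPM, between a repressor and its target, was 2.33 in replicate 1 and 3.63 in replicate 2.

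**Figure D2:**
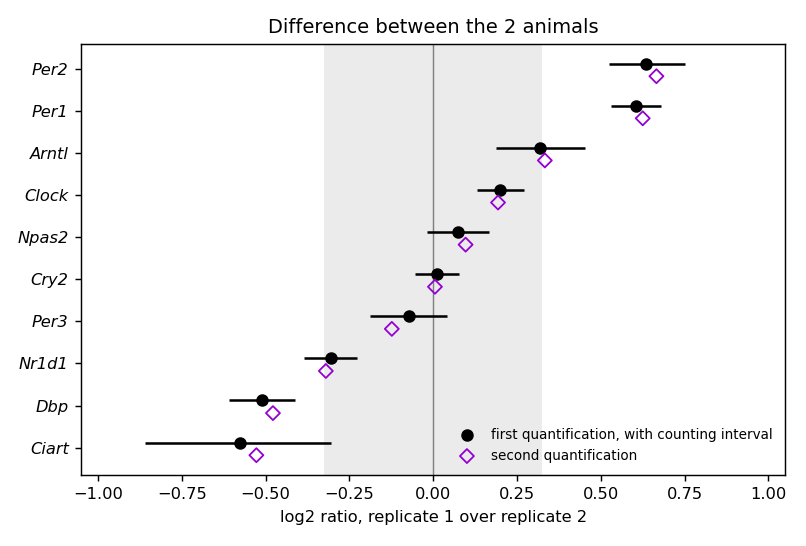
Log2 ratio of replicate 1 over replicate 2 for each clock gene, from TMM-scaled counts, with exact 95% counting intervals, beside the ratio from the second quantification; differences under 25% are shaded. Per2 and Per1 lie highest at 0.64 and 0.61, and Ciart and Dbp lowest at -0.58 and -0.51.

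A gene was counted as different where it was at least 25% higher in 1 animal than in the other. This held for 4 of the 10 clock genes, Per1 and Per2 higher and Dbp and Ciart lower in replicate 1, against 13.0% of the 14169 genes that averaged 50 or more normalised counts, all 10 members among them. Over all these genes 5.97% were higher and 7.00% lower in replicate 1 by that measure. The 10 members were chosen with earlier results of these data known. Their share is therefore a description of these genes and cannot be read as an excess over all genes. Past 1.5-fold were 2 of 10, Per1 and Per2, beside 3.59% of all genes (1.84% higher and 1.74% lower in replicate 1). None of the 10 reached 2-fold, beside 0.861% of all genes (0.550% higher and 0.311% lower). Just outside the 25% limit were Arntl, at 1.2476-fold higher in replicate 1, and Nr1d1, at 1.24-fold in the other direction, and the nearest gene inside it was Dbp, at 1.42-fold in that direction. The counting interval of Ciart, alone among the 4, reached across that limit. The median log2 ratio of the 10 was 0.04, beside 0.00086 over all genes, so the members did not lean to one animal as a set. Their median absolute log2 ratio was 0.31, or 1.24-fold, beside 0.11, or 1.08-fold, over all genes. The intervals of TPM in the authors' deposited table did not overlap between the animals for 4 members, Arntl, Per1, Nr1d1 and Dbp, beside 12.1% of all genes.

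**Figure D3:**
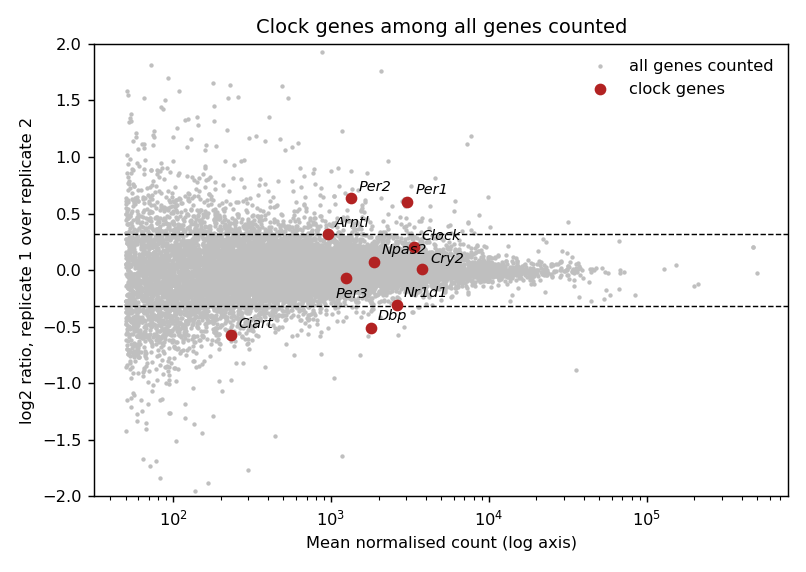
Log2 ratio of replicate 1 over replicate 2 against mean normalised count (log axis) for 14169 genes, with the clock genes marked; 26 genes lie beyond the plotted range of 2 on the log2 scale. Per1, Per2, Dbp and Ciart lie outside the dashed lines that mark a difference of 25%.

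The other genes of the clock pathway were 29 in all. Of them 28 had enough counts, 20 were higher and 8 lower in replicate 1, and 4, or 14.3%, were at least 25% apart. All 4 were higher in replicate 1. Over the 14169 genes counted, 7111 were higher and 7058 lower in replicate 1, and 13.0% were at least 25% apart. The median log2 ratio of the 28 was 0.08 and their median absolute ratio 1.09-fold, close to the 1.08-fold over all genes. Nfil3, a repressor that competes with DBP at D-boxes, had 7.82 and 4.96 TPM in replicates 1 and 2, a log2 ratio of 0.70. Klf10, a Krüppel-like repressor, had 15.7 and 10.8 TPM in replicates 1 and 2, a log2 ratio of 0.59.

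Bhlhe40, whose protein DEC1 represses through E-boxes, had 63.9 and 48.3 TPM in replicates 1 and 2, a log2 ratio of 0.41. Arntl2, the BMAL1 paralogue, had only 107 and 94 expected counts in replicates 1 and 2, and its counting interval of 0.960 to 1.70 held 1. It was not 25% apart in the second quantification or on the log2(TPM + 1) scale, with log2 ratios of 0.0076 and 0.06. The 3 highest of the pathway were Tef with 127 ± 12.9 TPM, the kinase gene Csnk1a1 with 120 ± 3.58 TPM and Sfpq, a PER-complex cofactor, with 91.7 ± 3.44 TPM. Dbp had a log2 ratio of -0.51, against 0.03 and 0.01 for Tef and Hlf, which encode PAR bZIP factors like DBP. Nr1d1 had a log2 ratio of -0.31, against 0.07 for its paralogue Nr1d2, which stood at 45.8 and 43.8 TPM in replicates 1 and 2. Usp2, a clock-controlled ubiquitin protease, was at 42.8 and 54.9 TPM in replicates 1 and 2, a log2 ratio of -0.30, short of the 25% limit.

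Other gene lists differed between the same libraries, and are given as values beside the clock genes. All 16 immediate early genes, which neurons transcribe upon activity, were at least 25% higher in replicate 1, with a summed level of 635 TPM there and 284 TPM in replicate 2 and a median log2 ratio of 1.03. The highest were Arc with 163 and 27.8 TPM and Egr1 with 100.3 and 59.5 TPM in replicates 1 and 2, and none was at 0. All 10 glucocorticoid-responsive genes had log2 ratios above 0, 3 of them at least 25% higher in replicate 1, but the smallest was 0.0057, almost level. They summed to 248 and 197 TPM in replicates 1 and 2, with a median log2 ratio of 0.25. Their highest members were Sgk1 with 60.7 and 49.2 TPM and Tsc22d3 with 55.8 and 40.6 TPM in replicates 1 and 2. Over the 14169 genes counted, 7111 were higher and 7058 lower in replicate 1, and 5.97% were at least 25% higher there. The 10 markers of choroid plexus, the ventricular epithelium, summed to 979 TPM in replicate 1 and 110.5 TPM in replicate 2. Of these, 8 had enough counts (Folr1 and Otx2 did not), all 8 were higher in replicate 1 with a median log2 ratio of 3.69, and none was at 0. The count filter is a mean over both animals, so a marker could pass it through replicate 1 alone, and the median depends on that choice. Folr1 had 76 and 3 and Otx2 54 and 12 expected counts in replicates 1 and 2. Ttr was highest with 711 and 2.40 TPM and Enpp2 next with 225 and 101 TPM in replicates 1 and 2. The part of these lists in the clock gene differences was not tested.

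The markers of cortical cell types, and of striatum as a neighbouring region, were close between the animals. No member of the pan-neuronal, excitatory, inhibitory, astrocyte, oligodendrocyte, microglia or striatum lists was 25% apart. Their sums in replicates 1 and 2 were 2798 and 2985 TPM for pan-neuronal genes, 2142 and 2253 TPM for excitatory, 588 and 647 TPM for inhibitory, 1397 and 1467 TPM for astrocyte, 1630 and 1698 TPM for oligodendrocyte, 102 and 108 TPM for microglia, and 784 and 838 TPM for striatum genes. In bulk tissue, fewer cells of a type and less RNA per cell cannot be told apart.

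**Figure D4:**
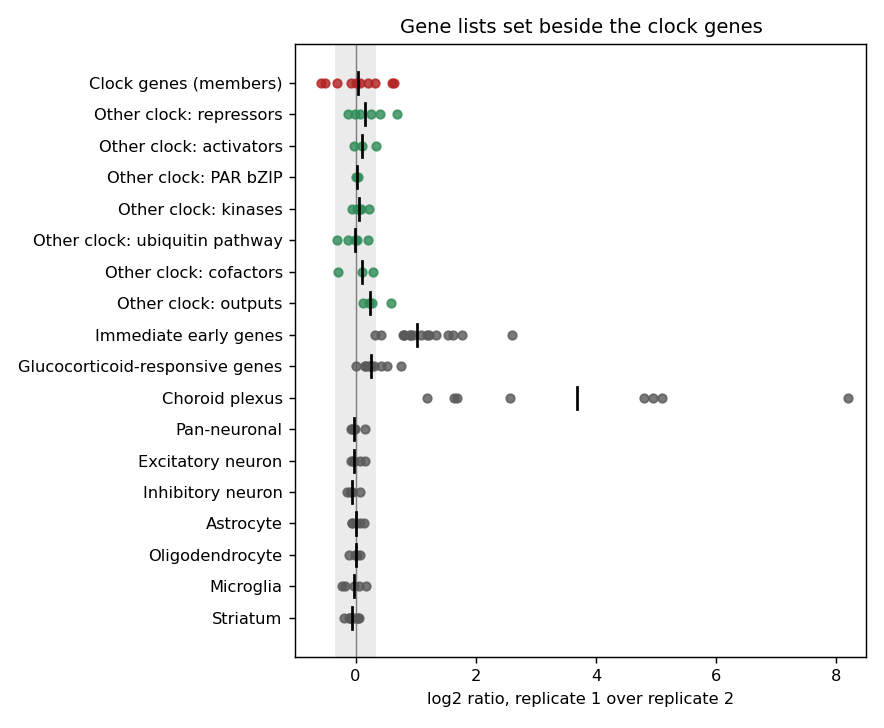
Log2 ratio of replicate 1 over replicate 2 of each gene (points) in the clock genes, the other clock genes, the activity and glucocorticoid lists and the cell type markers, with the median as a bar and differences under 25% shaded. The 10 clock genes spread from -0.58 to 0.64 around a median of 0.04, while all 16 immediate early genes lie above 0.

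At the level of transcripts, the same transcript led each of the 10 genes in both animals in the first quantification, beside 86.3% of 11602 coding genes with at least 2 transcripts. In the second quantification this held for 8 of 10, beside 80.5%, the exceptions being Per1 and Ciart. The leading share was highest for Nr1d1-201, 96.1% and 95.4% of the gene's TPM in replicates 1 and 2, and for Per2-201, 94.2% and 97.0%. Cry2-201 took 84.7% and 83.5%, and Npas2-201 83.5% and 84.9%, of their genes in replicates 1 and 2. In these 4 genes the animals differed by under 3 percentage points in the first quantification. In the second, Npas2-201 held 68.2% and 76.5% in replicates 1 and 2. The leading transcript was a coding one in all 10 genes. Clock-205 held 49.8% and 50.5% of Clock in replicates 1 and 2, the rest being spread over 5 transcripts. By the second quantification it held 37.2% in each animal, close to Clock-201 at 35.8% and 34.2% in replicates 1 and 2.

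The leading transcript of Arntl was less even. Arntl-201 held 82.9% in replicate 1 and 70.3% in replicate 2, while Arntl-206 held 3.71% and 22.2%, and the second quantification also gave Arntl-206 more in replicate 2, at 8.85% and 30.3%. Per3-201 held 68.3% and 51.9% of Per3 in replicates 1 and 2. The noncoding transcripts of Per3 held 31.7% and 48.2% of it in replicates 1 and 2, against medians of 11.6% and 12.6% over the coding genes, and those with a retained intron held 26.4% and 29.5%, against 2.96% and 3.61%. Such shares are not rare. Of the coding genes, 37.7% had a noncoding share of at least 20%, and 18.2% a retained-intron share of at least 20%. By the second quantification the noncoding share of Per3 was 27.2% and 51.2%, and the retained-intron share 15.5% and 27.1%, in replicates 1 and 2. Per3 lies within Camta1, a gene on the same strand at 115 and 117 TPM in replicates 1 and 2, with no exonic base shared, and any part of Camta1 intronic RNA in these shares was not tested. Dbp-201 held 62.0% and 54.8% of Dbp in replicates 1 and 2, and retained-intron transcripts held 14.6% and 12.4%.

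The level of Per1 differed between the quantifications, at 70.0 and 48.0 TPM in replicates 1 and 2 in the first and 46.4 and 42.2 TPM in the second. Rescaled over protein-coding genes, it was 142 and 94.9 TPM in the first and 99.9 and 63.8 TPM in the second. The gap between the animals thus stayed on that scale. The part of read assignment to transcripts in the difference between quantifications was not tested. Per1-201 held 51.0% and 44.1% of Per1 in replicates 1 and 2, and Per1-204, a short transcript of 496 bases, 39.9% and 40.3%. Per1-204 was listed at 27.9 and 19.3 TPM in replicates 1 and 2 on 195 and 147 expected counts, which were 5.65% and 5.76% of the gene's counts, since a short length turns few counts into a high TPM. The second quantification gave Per1-201 28.3% and 67.6% in replicates 1 and 2, and gave Per1-206, at 0% and 5.41% in the first, 36.1% and 0.0335%. The gene's count ratio did not turn on this, with a log2 ratio of 0.61 in the first quantification and 0.63 in the second. Ciart-201 led Ciart with 69.1% and 70.7% in replicates 1 and 2, but with 25.3% and 34.0% in the second quantification, on few counts.

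**Figure D5:**
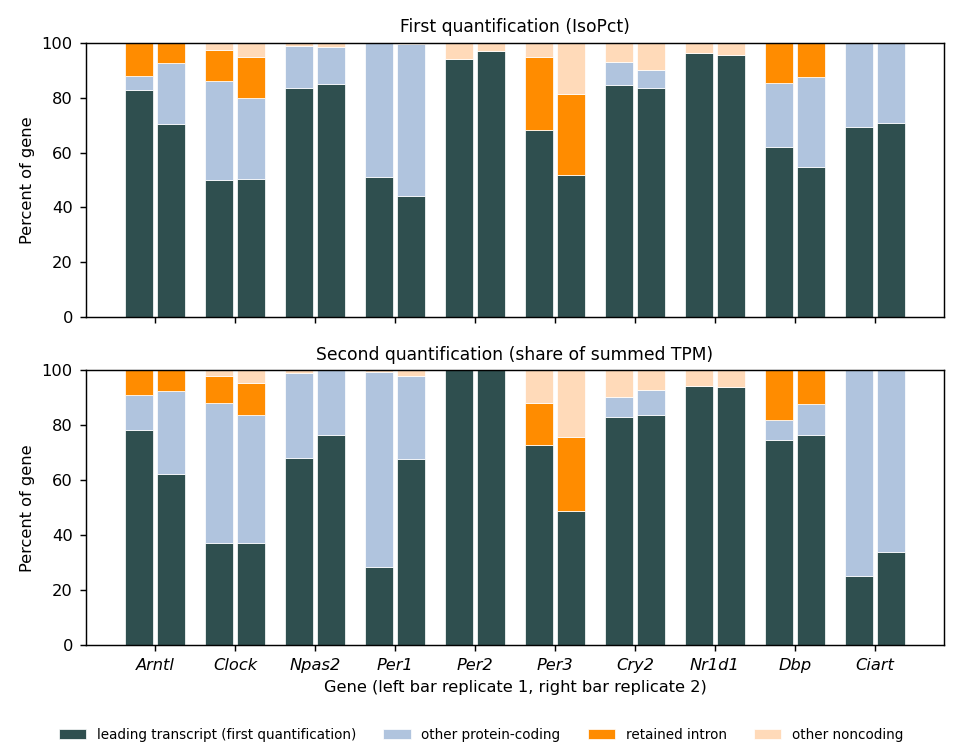
Percent of each clock gene's TPM held by its transcripts in replicate 1 and replicate 2, in both quantifications, with the leading transcript of the first quantification marked. Nr1d1 and Per2 are held almost wholly by that transcript, and Per1 and Ciart change most between the quantifications.

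Some members share exonic bases with a gene on the opposite strand, and whether counting used the strand is not given in the sources used here. Nr1d1 shares 263 of its 3077 exonic bases with Thra, a thyroid hormone receptor gene at 352 and 365 TPM in replicates 1 and 2. Dbp shares 539 of 2993 exonic bases with Sphk2, at 13.1 and 11.7 TPM in replicates 1 and 2. Cry2 shares 295 of 6320 exonic bases with D930015M05Rik, listed at 0 and 0.14 TPM in replicates 1 and 2. All 10 members had whole-number expected counts in both libraries, to 2 decimals. So did Thra, with 11946 and 13267, and Sphk2, with 674 and 674, in replicates 1 and 2. Any effect of these overlaps on the levels of Nr1d1 and Dbp was not tested.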

How the data were processed

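Total RNA libraries of 2 animals of 1 group were used. Per the file headers, the authors deposited expected counts, TPM, FPKM and each transcript's percent of its gene, with the bounds of an interval of TPM (a signal that is never negative), on mm10 with GENCODE M21, derived from transcriptome alignments per the notes deposited with the files. A further deposited table per library, derived from the reads, gives estimated counts and TPM and is called the second quantification. The quantification programs were not named in the labels, file headers or notes.

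Expected counts were rounded, and library sizes without rRNA genes, tRNA entries and spike-ins were 24759057 in replicate 1 and 27523163 in replicate 2. Log2 ratios (replicate 1 over replicate 2) used CPM after TMM scaling with a prior count of 2 (edgeR 4.0.16, R 4.3.3), for genes averaging 50 or more normalised counts, and the calculation was checked on simulated data. With 1 library per animal no p-value was computed. Promoters were searched with Python 3.11.15. Alternatives were DESeq2 1.42.0 size factors, spike-in scaling, a prior count of 0.5, log2(TPM + 1), FPKM, TPM over protein-coding genes, no count filter, the second quantification and each animal alone.

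The members and gene lists were chosen with earlier results of these data known. Named were all members, the 3 highest other clock genes and those at least 25% apart, and the 2 highest genes of the lists set beside them; further clock genes of the fixed list were named as the rule allows. Some genes of the fixed lists are not reported here by name.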

Additional observations from a re-analysis of the deposited data

How the results depend on the processing

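The summed level of the 10 clock genes, 346 TPM, was 693 TPM when TPM was rescaled over protein-coding genes alone and 223 on the FPKM scale, both by construction, 614 TPM when the second quantification was rescaled in that way (a setting chosen after seeing the data), and 340 to 352 TPM with either animal left out. The share of promoters with any motif was 7.63% when only the bases before the start were searched, against 8.94%. Per1, Per2, Dbp and Ciart were at least 25% apart, in the same directions, under every alternative run for that count. Arntl joined them under DESeq2 size factors, spike-in scaling and the second quantification, and Nr1d1 under log2(TPM + 1), where the sign for Cry2 and for the median (-0.0044) turned. Of 50 alternative log2 ratios of single members, 45 moved by less than their counting error and 5 by more, and no sign turned for a gene at least 25% apart. Of 50 alternative levels of single members, 28 moved by less than the SD between animals and 22 by more. Most of these outcomes were fixed in advance. With 2 animals, leaving 1 out cannot move a mean past that SD, and FPKM and the protein-coding rescaling change the unit. In the second quantification only Npas2 (33.6 against 28.7 TPM) and Ciart (15.8 against 10.5 TPM) moved by more. The share of all genes called ran from 13.0% to 14.7%. Spike-in scaling put the median of all genes at 0.07. Ciart, at 175 and 294 expected counts in replicates 1 and 2, is limited most by depth. No paired analysis was possible because there is 1 group of 2 animals.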
